A study of Mus musculus with 5 samples.

Results

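Tnfrsf9, Tnfrsf4, Tnfrsf18, Tnfrsf1b, Tnfrsf1a, Cd27 and Fas encode 7 receptors of the tumor necrosis factor (TNF) receptor superfamily, and Tnf, Lta and Ltb encode 3 of the cytokines that such receptors bind. For each gene, every Runx3-bound and every H3K4me1-marked region was taken that overlapped the gene body or the 20 kb on either side of it, in the mm9 mouse genome with GENCODE vM1 gene models. The windows of Tnfrsf4 and Tnfrsf18 overlap, as do those of Tnf, Lta and Ltb, so the 10 genes form 7 loci. Together the loci held 27 of the 9135 Runx3-bound regions and 64 of the 18992 H3K4me1-marked regions.

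The regions came from ChIP-seq of splenic CD8+ T cells (CD8-TC) of ICR mice, taken up by positive selection on anti-CD8 beads, TCR-activated with anti-CD3e and anti-CD28 for 2 days and grown for 4 more days with 100 u/ml IL-2. There were 2 libraries with anti-Runx3 antibody, 2 control libraries with non-immune serum (NIS) and 1 library with anti-H3K4me1 antibody, all from cells in this single state. Peaks were called on joined reads, so no value below has a replicate error and no test between conditions could be made. The lists give positions without read numbers, so the depth behind a single region cannot be given, library totals were not used here, and the 95% Wilson intervals given cover counting error only, among regions of which several share a locus.

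The list of regions was first set beside genes that mark cell types. Of all protein-coding genes, 34.2% had a Runx3-bound and 39.4% an H3K4me1-marked region. All 6 genes listed for CD8 T cells (Cd3e, Cd3d, Cd3g, Cd8a, Cd8b1 and Cd2) had regions of both kinds. Cd3e, Cd3d and Cd3g had 2 and 8 each, and may count the same regions. There were 5 Runx3-bound and 9 H3K4me1-marked regions at Cd8b1, the beta chain of the CD8 co-receptor. Of 4 B cell genes, 2 had a Runx3-bound and 3 an H3K4me1-marked region, and of 3 myeloid genes 1 had both kinds. Runx3-bound regions were also present at 1 of 2 NK cell genes and at 3 of 3 genes of CD4 helper cells, Cd4 among them. Neither kind was found at Ms4a1 (CD20 of B cells), Csf1r, Lyz2 or Ncr1, whereas Itgam had 1 Runx3-bound and 8 H3K4me1-marked regions and Klrb1c had 2 and 6. Peak lists measure no RNA, so the share of other cells in the preparation cannot be read from these values. The paper itself reports that nearly all cells were CD8-TC at the end of culture.

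Receptors of this superfamily carry no enzyme of their own. Binding of a ligand gathers adaptor proteins of the TRAF or death domain type below the membrane, and these lead to NF-kB activation or to caspases. On activated T cells, 4-1BB (Tnfrsf9), OX40 (Tnfrsf4), GITR (Tnfrsf18) and CD27 give costimulatory signals that favor survival and expansion, TNFR2 (Tnfrsf1b) binds TNF, and Fas can trigger death of the activated cell. Runx3 is a transcription factor of cytotoxic T cells that binds the RUNX motif, and H3K4me1 is a histone mark common at enhancers.

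Runx3-bound sequence is shown first for at most 2 regions of a locus, since these letters are what Runx3 is known to bind. Regions at the start of 1 of the 10 genes were taken first, then those with most RUNX motifs and, in a tie, the wider, and regions with no motif whose surroundings were free of exons were passed over. Capitals mark RUNX motifs on either strand, that is TGTGGT and its variants, the motif TGTGGC, the motif TGCGGT and the motif TGCGGC. Each run is 80 bases of the plus strand of mm9, chosen around the motif nearest to the region centre and outside exons.

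Tnfrsf9, intron, chr4:150298469-150298548: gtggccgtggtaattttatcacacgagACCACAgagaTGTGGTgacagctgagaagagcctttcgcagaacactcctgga

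Tnfrsf9, intron, chr4:150295443-150295522: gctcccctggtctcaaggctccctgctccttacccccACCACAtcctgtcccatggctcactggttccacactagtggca

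Tnfrsf4 and Tnfrsf18, between the genes, chr4:155396489-155396568: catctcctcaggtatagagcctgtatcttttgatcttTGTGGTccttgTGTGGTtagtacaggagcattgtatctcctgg

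Tnfrsf4 and Tnfrsf18, downstream of both, chr4:155407577-155407656: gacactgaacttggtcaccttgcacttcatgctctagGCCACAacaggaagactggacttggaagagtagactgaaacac

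Tnfrsf1b, intron, chr4:144811494-144811573: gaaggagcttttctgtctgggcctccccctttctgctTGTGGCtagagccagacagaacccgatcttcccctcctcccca

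Tnfrsf1b, intron, chr4:144825940-144826019: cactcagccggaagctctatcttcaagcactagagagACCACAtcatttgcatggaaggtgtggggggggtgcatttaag

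Cd27 window, at the Vamp1 start, chr6:125165806-125165885: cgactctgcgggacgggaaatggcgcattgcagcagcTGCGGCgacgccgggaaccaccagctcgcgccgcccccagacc

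Fas, intron, chr19:34381412-34381491: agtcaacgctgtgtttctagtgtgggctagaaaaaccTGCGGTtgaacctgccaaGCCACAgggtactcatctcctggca

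Lta, upstream of the start, chr17:35342302-35342381: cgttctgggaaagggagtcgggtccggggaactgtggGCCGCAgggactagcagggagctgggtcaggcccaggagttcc

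Ltb, upstream between Ltb and Lst1, chr17:35327035-35327114: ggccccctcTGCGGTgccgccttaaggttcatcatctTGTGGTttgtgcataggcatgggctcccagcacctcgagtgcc

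Paired motifs stand close together in several of these runs. In the Tnfrsf9 intron an ACCACA, which is TGTGGT on the other strand, lay 4 bp from a TGTGGT, and between Tnfrsf4 and Tnfrsf18 a TGTGGT was repeated after 5 bp on the same strand. The Fas motifs were 12 bp apart and those upstream of Ltb 22 bp apart.

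The first question was how many regions the genes had. Of the 10 genes, 9 had a Runx3-bound region in the window, against 34.2% of all 22350 protein-coding genes, and all 10 had an H3K4me1-marked region, against 39.4%. There were 3 or more Runx3-bound regions at 8 of the 10 genes, a number reached by 5.43% of all genes. Where windows overlap, a region was counted for more than 1 gene. With each region given only to its nearest protein-coding start, Tnfrsf9 had 5, Tnfrsf1b 4 and Tnfrsf18 3. Cd27 and Fas then had 2 each, Tnfrsf4, Tnf and Lta 1 each, and Tnfrsf1a and Ltb 0. The median was 4 Runx3-bound and 8 H3K4me1-marked regions per gene, and over all genes both medians were 0. The median window of the 10 genes was 43.6 kb, and that of all genes 55.4 kb. By length, the 7 loci had 6.34 Runx3-bound regions per 100 kb, compared with 0.675 as the mean of all gene windows and 0.357 in the genome outside assembly gaps. H3K4me1-marked regions covered 29.9% of the loci, 2.35% of all gene windows on average and 1.39% of the genome. These are descriptions of genes chosen with earlier results known, and no test was made of them.

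**Figure D1:**
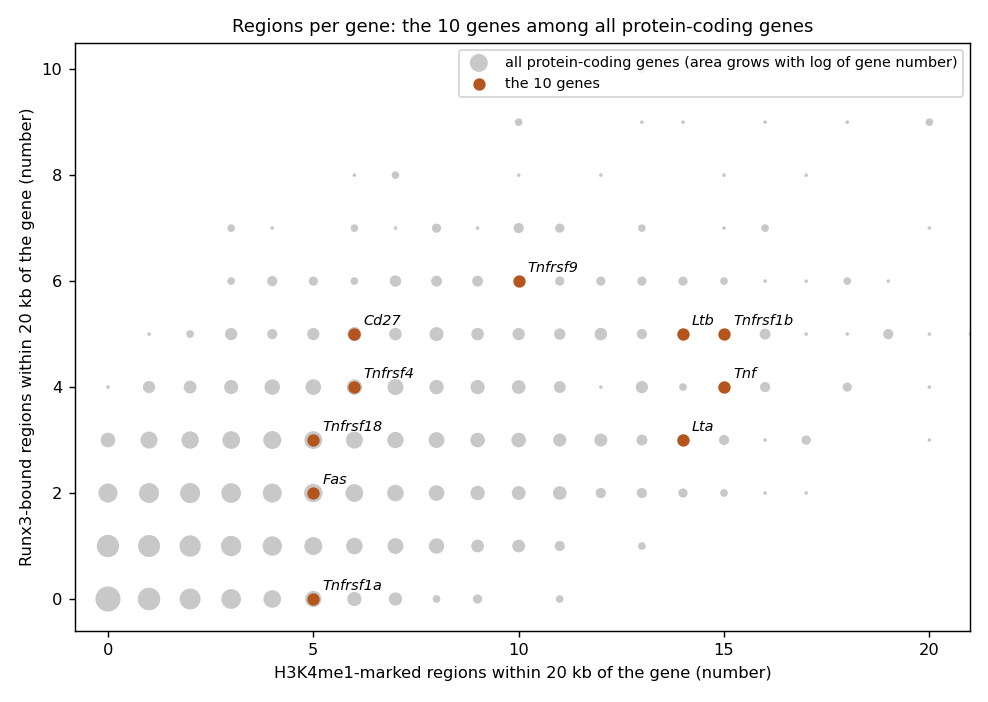
Number of H3K4me1-marked regions (x axis) and Runx3-bound regions (y axis) within 20 kb of a gene, for the 10 genes (brown, named) and for all protein-coding genes (grey, larger where more genes share a point). Tnfrsf9 lies highest of the 10 with 6 Runx3-bound regions, Tnfrsf1b and Tnf farthest right with 15 H3K4me1-marked regions, and Tnfrsf1a on the base line, while 27 genes lie beyond the axes.

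Genes with more H3K4me1-marked regions more often had Runx3-bound ones. Among genes with 0, 1 to 4, 5 to 9 and 10 or more H3K4me1-marked regions, a Runx3-bound region was present in 13.2%, 60.9%, 93.2% and 99.3%, and their median windows were 51.6, 58.9, 77.7 and 157 kb. Tnfrsf9, Tnfrsf1b, Tnf, Lta and Ltb were in the highest class, where the median number of Runx3-bound regions was 4, and had 6, 5, 4, 3 and 5 of them. Tnfrsf4, Tnfrsf18, Cd27, Fas and Tnfrsf1a were in the class of 5 to 9, where the median was 2, and had 4, 3, 5, 2 and 0.

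The locus maps gave the arrangement of both kinds of region around each start.

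**Figure D2:**
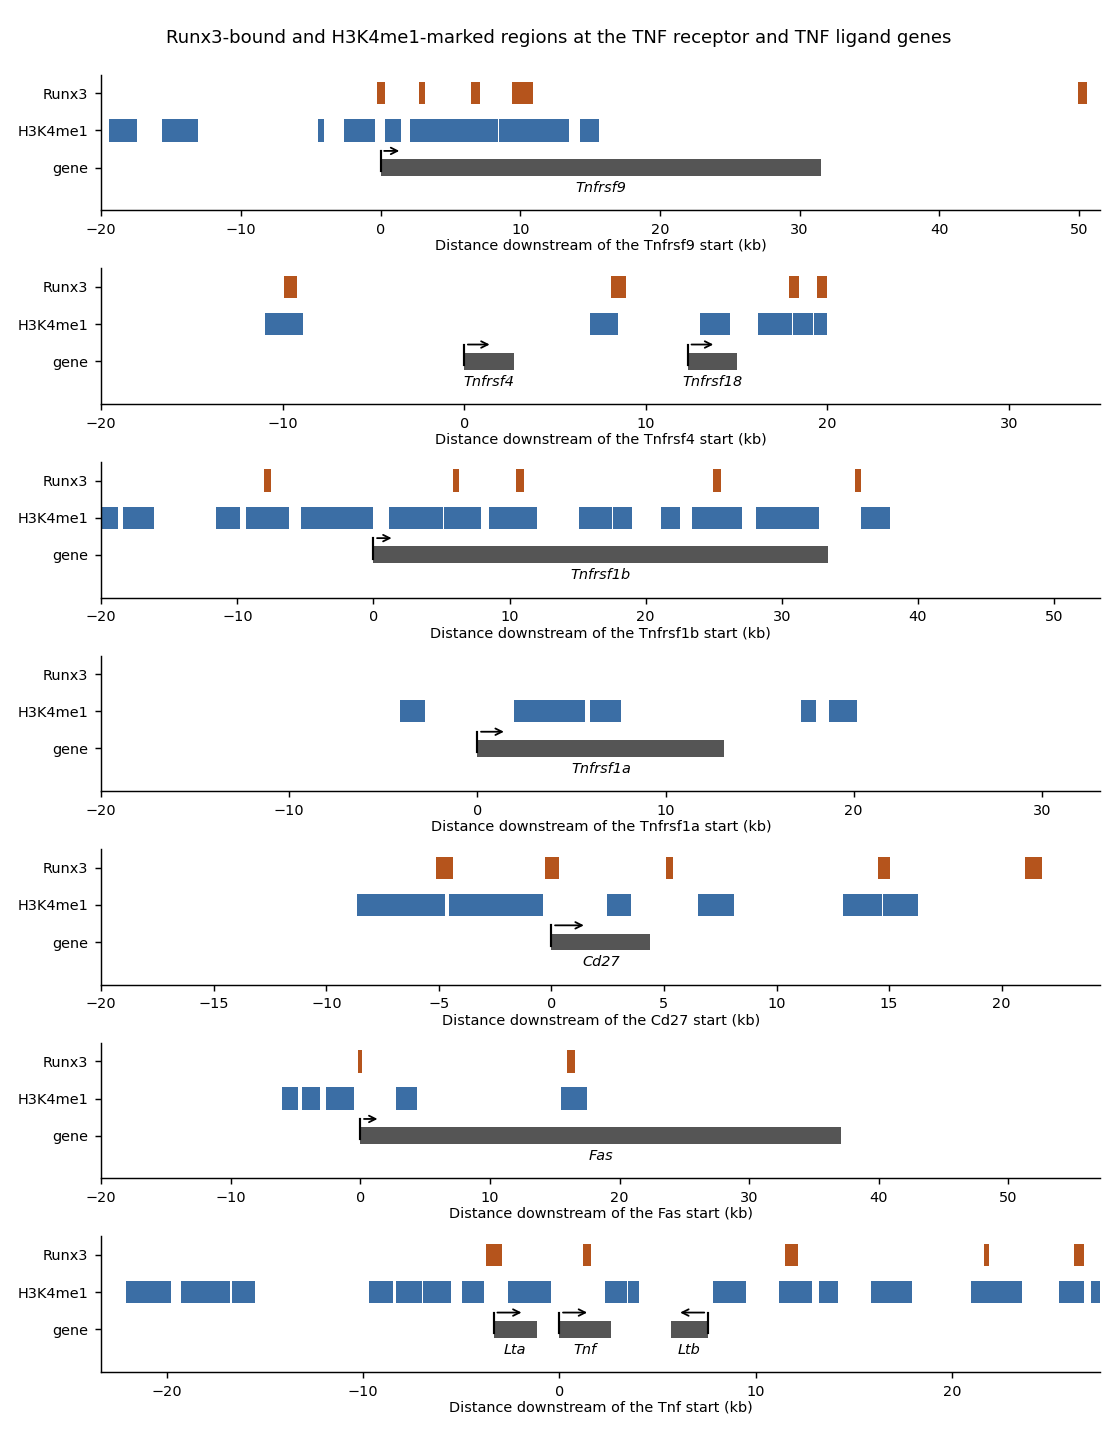
Runx3-bound regions (brown) and H3K4me1-marked regions (blue) in the 7 loci, drawn to scale as distance in kb downstream of the start of the named gene, with gene bodies in grey and arrows at the starts. No blue bar lies over any of the 10 starts, brown bars lie over those of Tnfrsf9, Cd27, Fas and Lta, and the Tnfrsf1a map has no brown bar.

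Tnfrsf9 (ENSMUSG00000028965.7, chr4:150288671-150320211, plus strand), the gene of 4-1BB, had 6 Runx3-bound and 10 H3K4me1-marked regions in its window of 71.5 kb. At least as many Runx3-bound regions were present at 110 genes, or 0.492% of all. The region at chr4:150288412-150288988 lay over the Tnfrsf9 start and also over that of the neighboring Park7, on the opposite strand. The lists cannot assign it to 1 of these 2 genes. It overlapped untranslated sequence, and 2.25% of it was covered by an H3K4me1-marked region. The next 4 were inside Tnfrsf9, centred 2.97, 6.79, 9.84 and 10.6 kb from the Tnfrsf9 start, and each was wholly covered by H3K4me1.

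The 2 regions farthest into the Tnfrsf9 gene, chr4:150298072-150298941 and chr4:150298966-150299600, were separated by 24 bp. They lay in the same H3K4me1-marked region, chr4:150297146-150302188, which at 5043 bp was the widest of the locus and alone among the 64 in holding more than 1 Runx3-bound region. The first of them, in an intron, was the widest of the 27 with 870 bp and had 6 RUNX motifs, 3 each of TGTGGT and TGTGGC. The second, of 635 bp with 3 motifs, was centred 132 bp upstream of an internal annotated Tnfrsf9 transcript start. In the region at chr4:150295140-150295791 all 4 RUNX motifs were TGTGGT. An AP-1 motif, TGAGTCA or TGACTCA, was found in 3 of the 4 regions inside the gene. The last region, chr4:150338617-150339217, differed from these: it lay 50.2 kb from the Tnfrsf9 start, over an annotated U1 small RNA, and 34.3 kb from the nearest H3K4me1-marked region.

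Tnfrsf4 (ENSMUSG00000029075.6, chr4:155387952-155390721, plus strand) encodes OX40 and Tnfrsf18 (ENSMUSG00000041954.11, chr4:155400273-155403004, plus strand) encodes GITR. Their windows held 4 and 3 Runx3-bound regions and 6 and 5 H3K4me1-marked ones, 3 Runx3-bound regions being common to both, and together they held 4 and 6. None of the 4 Runx3-bound regions lay inside either gene or at its start, and all 4 overlapped H3K4me1. The first, chr4:155378018-155378754, was 9.57 kb upstream of Tnfrsf4 in an intron of Sdf4, wholly inside the widest H3K4me1-marked region of the locus (chr4:155376965-155379086, 2122 bp). The second, chr4:155396046-155396847, was the widest with 802 bp and lay between the genes, 8.49 kb downstream of the Tnfrsf4 start and 3.83 kb upstream of the Tnfrsf18 start. H3K4me1 covered 45.9% of it. It had the TGTGGT repeat shown above and, outside its central 200 bp, 2 overlapping matches to the NF-kB consensus. The remaining pair, chr4:155405864-155406394 and chr4:155407389-155407941, lay 5.86 and 7.39 kb downstream of the Tnfrsf18 start, 994 bp apart, and was covered to 89.3% and 94.8%. The farther of them had 3 RUNX motifs, the most in the locus, and the motif shown above lay 2 bp from an ETS motif.

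Tnfrsf1b (ENSMUSG00000028599.4, chr4:144803366-144836773, minus strand) encodes TNFR2, the TNF receptor without a death domain. In its window of 73.4 kb were 5 Runx3-bound and 15 H3K4me1-marked regions, and the marked regions covered 54.0% of the window, the largest share among the 10 genes. All 5 Runx3-bound regions overlapped H3K4me1. The regions at chr4:144811216-144811799, chr4:144825689-144826331 and chr4:144830453-144830931 were in introns, 25.3, 10.8 and 6.08 kb from the start, and had 5, 4 and 1 RUNX motifs. A further one, chr4:144844321-144844832, was 7.80 kb upstream with 1 RUNX and 1 AP-1 motif, and these 4 were wholly covered by H3K4me1. The last, chr4:144800942-144801411, lay beyond the end of the gene and was covered to 9.15%. It was 35.6 kb from the Tnfrsf1b start and nearer to that of Vps13d, 16.3 kb away. The start itself had no Runx3-bound region, but the widest of the 64 H3K4me1-marked regions, chr4:144836779-144842077 with 5299 bp, ended 6 bp upstream of it.

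Tnfrsf1a (ENSMUSG00000030341.10, chr6:125299380-125312502, plus strand) encodes TNFR1, which has a death domain. Its window of 53.1 kb had 5 H3K4me1-marked regions and no Runx3-bound region. Among the 1176 genes with 5 to 9 H3K4me1-marked regions, 80 or 6.80% likewise had none. The widest marked region, chr6:125301300-125305115 with 3816 bp, lay inside the gene, 1920 bp downstream of its start. The nearest Runx3-bound region was centred 108 kb from the start and was the one upstream of Cd27 described next. Without read numbers, a weaker signal that was not called cannot be told from no binding.

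Cd27 (ENSMUSG00000030336.8, chr6:125182640-125187028, minus strand) encodes the receptor of CD70. Its window of 44.4 kb had 5 Runx3-bound and 6 H3K4me1-marked regions, which gave 11.3 Runx3-bound regions per 100 kb, the most of the 7 loci. For 2 of the 5 Runx3-bound regions the Cd27 start was the nearest protein-coding start. The region at chr6:125186709-125187301 lay over that start, had 1 RUNX motif and was not marked, with 106 bp between it and the H3K4me1-marked region upstream, the widest of the locus (chr6:125187408-125191591, 4184 bp). The region at chr6:125191400-125192175 was 4.76 kb upstream, the widest of the locus with 776 bp, and was covered to 80.7%. It lay over a non-coding exon of Vamp1, and the region at the Cd27 start also overlapped annotated Vamp1. For both, the lists cannot assign the region to either gene. The other 3 were nearer to neighboring genes. The unmarked regions chr6:125165245-125166007 and chr6:125181609-125181940 were at the starts of Vamp1 and Tapbpl, with 4 and 3 RUNX motifs, and chr6:125171973-125172538, in untranslated sequence of Vamp1, was covered to 95.1%.

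Fas (ENSMUSG00000024778.6, chr19:34365149-34402260, plus strand) encodes the death receptor CD95. In the longest window of the 10, 77.1 kb, it had 2 Runx3-bound and 5 H3K4me1-marked regions, and 13.6% of all genes had 2 or more Runx3-bound regions. The region at the start, chr19:34364976-34365262, was 287 bp wide, had 1 RUNX motif and was not marked. The widest marked region of the locus, chr19:34362484-34364668 with 2185 bp, ended 307 bp short of it. The other Runx3-bound region, chr19:34381123-34381696, was 16.3 kb inside the gene over a coding exon, had 2 motifs and was wholly covered by H3K4me1.

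Tnf (ENSMUSG00000024401.8, chr17:35336326-35338952, minus strand), Lta (ENSMUSG00000024402.5, chr17:35340110-35342296, minus strand) and Ltb (ENSMUSG00000024399.5, chr17:35331384-35333265, plus strand) encode TNF, lymphotoxin alpha and lymphotoxin beta. The 3 genes share a locus of 50.9 kb with 5 Runx3-bound and 17 H3K4me1-marked regions, which covered 50.6% of it. The windows held 4, 3 and 5 Runx3-bound and 15, 14 and 14 H3K4me1-marked regions at Tnf, Lta and Ltb, so most regions were counted for more than 1 gene.

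The region at chr17:35341856-35342701 lay over the Lta start. It was the widest of the locus with 846 bp, and with 7 RUNX motifs (4 of them TGTGGC) had the most of all 27. It also had a match to the NF-kB consensus, 83 bp downstream of the start. It was not marked, but H3K4me1-marked regions lay 294 bp away on the side of the gene body and 108 bp away upstream. The region at chr17:35337334-35337769 lay over coding exon of Tnf, 1401 bp downstream of its start. It had 0 RUNX motifs and 2 copies of TGAGTCA, and the nearest H3K4me1-marked region was 708 bp away.

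The other 3 regions of the locus were wholly covered by H3K4me1 and were nearer to other genes. Upstream of Ltb by 4.28 kb was chr17:35326777-35327437, with 3 RUNX motifs and centred 1.72 kb upstream of Lst1. The region chr17:35317075-35317313, with 1 motif and 239 bp, was the narrowest of the 27, and chr17:35312236-35312733, in an intron of Aif1, had 0 RUNX motifs. The widest marked region, chr17:35309070-35311862 with 2793 bp, was also at Aif1. Ltb therefore had 5 Runx3-bound regions in its window, but its start was the nearest protein-coding start of 0 of them.

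The next question was how the genes' starts were marked. A Runx3-bound region lay over the start of 4 of the 10 genes (Tnfrsf9, Cd27, Fas and Lta), against 6.46% of all protein-coding genes. The one at Tnfrsf9 also covered the start of Park7. An H3K4me1-marked region lay over 0 of the 10 starts and over 1.29% of all. At 8 of the 10 genes, however, one ended or began within 1 kb of the start without covering it, against 6.98% of all genes. The distances from start to mark were 6 bp at Tnfrsf1b, 284 at Ltb, 305 at Tnfrsf9, 380 at Cd27, 448 at Tnf, 481 at Fas, 514 at Lta and 669 at Tnfrsf18. At Tnfrsf1a and Tnfrsf4 they were 1920 and 6908 bp.

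The RUNX motif nearest to each of the 4 bound starts is shown in 30 bases on the strand of the gene, read from mm9. These motifs lie near the annotated start, at the distances given below. The stretches of Cd27 and Fas include the start, and those of Tnfrsf9 and Lta lie downstream of it.

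Tnfrsf9, plus strand, chr4:150288736-150288765: tggggaggacacTGCGGTccctgggcaccc

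Cd27, minus strand, chr6:125187026-125187055: aaaaccaaaacaGCCACAactgccttcaaa

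Fas, plus strand, chr19:34365144-34365173: ctggtgggtgggGCCGCAggctgcccacac

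Lta, minus strand, chr17:35342263-35342292: aagcccttagccTGCGGTtctctcctaggc

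The motif was 77 bp downstream of the start at Tnfrsf9, 15 bp upstream at Cd27, 7 bp downstream at Fas and 16 bp downstream at Lta. The variants were TGCGGT at Tnfrsf9 and Lta, TGTGGC at Cd27 and TGCGGC at Fas, and at Cd27 and Fas they are read on the opposite strand. TGTGGT, the most frequent variant in the 27 regions, was not the one nearest to the start at any of the 4. The regions at Tnfrsf9, Cd27 and Fas had 1 RUNX motif each, so only Lta, with 7, offered a choice. The paper describes TGCGGT and TGCGGC as more prevalent in Runx3-bound promoter regions in general. In RefSeq promoters of GRCm38.p6, which span 250 bp before to 50 bp after a start, all 10 genes were found with 11 promoters. A RUNX motif was present in 5 of the 11, at Cd27, Fas, Lta, Tnf and 1 of the Tnfrsf9 promoters, against 45.2% of all 32851 promoters. The NF-kB consensus matched at Ltb and Tnfrsf9, against 4.51% of all promoters.

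Of the 27 Runx3-bound regions, 20 overlapped an H3K4me1-marked region (74.1%, interval 55.3 to 86.8), compared with 57.3% of all Runx3-bound regions, and 13 of the 20 were wholly covered. The share differed with distance to a start. Less than 1 kb from a protein-coding start, 2 of 7 were marked, and the remaining 20 regions had 18 marked. Among all Runx3-bound regions, 11.7% of those less than 1 kb from such a start and 68.3% of the others were marked. All of the regions at Tnfrsf1b and at Tnfrsf4 and Tnfrsf18 overlapped the mark, 5 of 6 at Tnfrsf9, 3 of 5 at Tnf, Lta and Ltb, 2 of 5 at Cd27 and 1 of 2 at Fas.

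**Figure D3:**
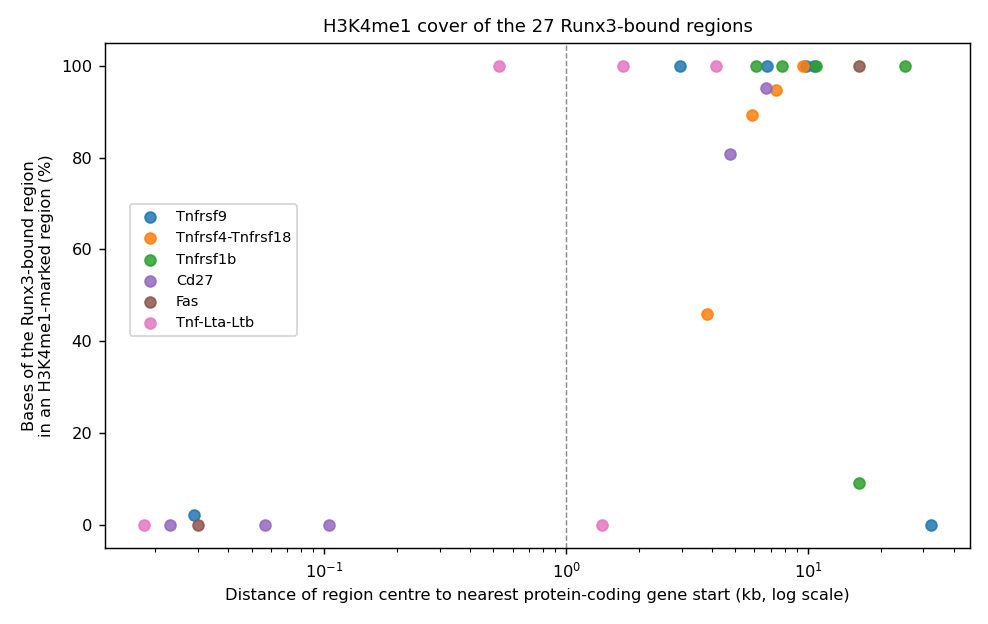
Share of bases of each of the 27 Runx3-bound regions that lay in an H3K4me1-marked region (y axis, percent) by distance of its centre to the nearest protein-coding start (x axis, kb, log scale, dashed line at 1 kb), with 1 color per locus. Left of the line 6 of 7 points are at 2.25% or below, and right of it most are above 80%.

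The 7 unmarked regions were those at the starts of Lta, Fas, Cd27, Vamp1 and Tapbpl, the Tnf exon region and the one at the U1 RNA. Of these, 4 had H3K4me1 within 1 kb (106 bp at Cd27, 108 at Lta, 307 at Fas and 708 at Tnf), against 19.2% of all unmarked Runx3-bound regions. Their median distance to the mark was 708 bp and that of all unmarked regions was 16.9 kb. From the side of the mark, 22 of 64 H3K4me1-marked regions held a Runx3-bound region (34.4%, 23.9 to 46.6), against 29.2% of all. Median width of the 64 was 1694 bp, and of all marked regions 1592 bp.

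Runx3-bound regions of the loci lay near each other. For 20 of 27 (74.1%) another Runx3-bound region was centred within 10 kb, against 33.5% of all. The closest pair was that in the Tnfrsf9 gene, with centres 0.777 kb apart. With all annotated transcript starts counted, 13 regions lay less than 1 kb from a start (48.1%, 30.7 to 66.0, beside 26.3% of all), 7 lay 1 to 5 kb away and 7 farther. The nearest protein-coding start was that of 1 of the 10 genes for 19 of the 27 Runx3-bound and 42 of the 64 H3K4me1-marked regions. By annotation, 8 were in introns, 7 between genes, 4 over coding exon with untranslated sequence, 4 over untranslated sequence alone, 2 over coding exon alone and 2 over non-coding exons.

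A RUNX motif was found in 25 of the 27 regions (92.6%, 76.6 to 97.9), and the share among all Runx3-bound regions was 92.6% as well. At least 2 motifs were present in 16 (59.3%, 40.7 to 75.5), beside 67.3% of all, and the median was 2 in both. Median width was 577 bp in the 27 and 521 bp in all. In the central 200 bp, searched to compare regions at equal width, 25 of 27 had a RUNX motif, against 78.8% of all. The median distance from region centre to the nearest motif was 30.5 bp, compared with 38.5 bp in all. By variant, TGTGGT was in the centre of 14 regions (51.9%, all 54.3%), TGTGGC in 9 (33.3%, all 26.8%), TGCGGT in 7 (25.9%, interval 13.2 to 44.7, all 13.6%) and TGCGGC in 3 (11.1%, all 8.39%). Over the whole width, the 64 RUNX motifs of the 27 regions were 28 TGTGGT, 22 TGTGGC, 10 TGCGGT and 4 TGCGGC.

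Motifs of other factors were searched in the same central windows on both strands. ETS motifs, for which the forms were CGGAAG, the form AGGAAG, the form CGGAAA and the form AGGAAA, were in 16 regions (59.3%, 40.7 to 75.5), against 66.2% of all. An ETS motif lay within 50 bp of a RUNX motif in 11 regions (40.7%, 24.5 to 59.3, all 40.2%) and a second RUNX motif in 7 (25.9%, 13.2 to 44.7, all 26.0%). AP-1 motifs, TGAGTCA or TGACTCA, were in 4 regions (14.8%, 5.92 to 32.5, all 6.50%), namely 2 in the Tnfrsf9 gene, that upstream of Tnfrsf1b and that in the Tnf exon. The NFAT core TGGAAA was in 4 (14.8%, all 13.9%), the GC box GGGCGG in 3 (11.1%, all 15.4%), the T-box core GGTGTG in 6 (22.2%, all 21.4%), which can share bases with a RUNX motif, and the E-box CACGTG in 3 (11.1%, all 4.76%). The NF-kB consensus was in the centre of 1, at the Lta start (3.70%, all 3.46%). For each of these motifs and for RUNX, the share among all Runx3-bound regions lay inside the interval of the 27. A match describes letters and not occupancy by a factor.

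**Figure D4:**
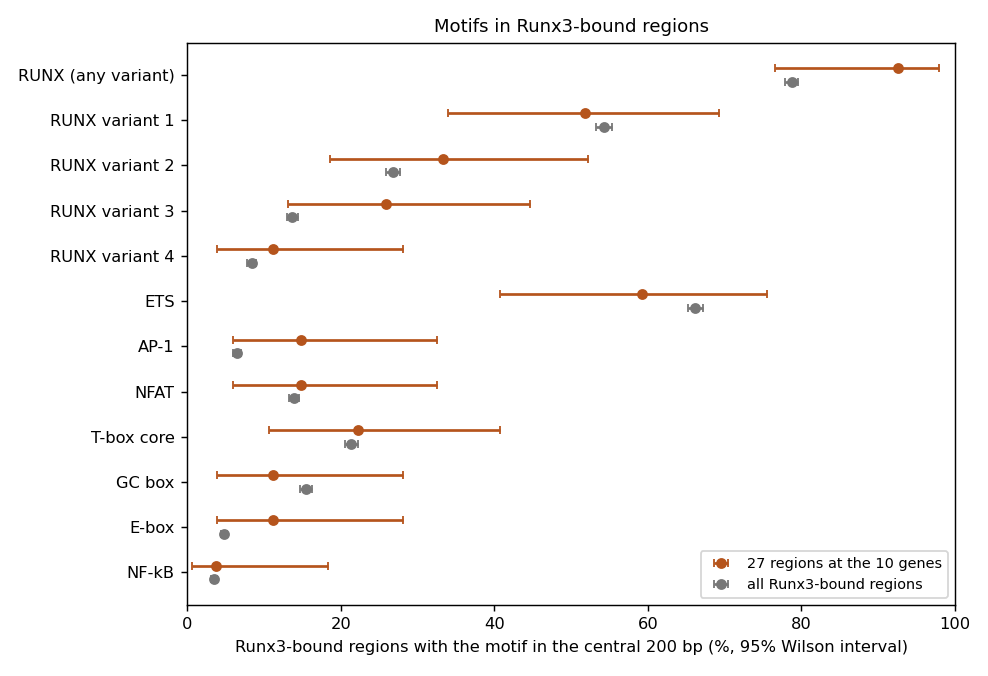
Share of Runx3-bound regions with a motif in the central 200 bp (x axis, percent) for the 27 regions at the 10 genes (brown) and all 9135 regions (grey), with 95% Wilson intervals as bars. RUNX variant 1 is TGTGGT, variant 2 is the motif TGTGGC, variant 3 is the motif TGCGGT and variant 4 is the motif TGCGGC. The wide brown bars show what 27 regions can resolve, for instance 40.7 to 75.5% for ETS beside 66.2% of all.

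The other genes of the pathway were taken from a list of 46 ligands, receptors and signalling proteins. Of these, 27 had a Runx3-bound region (58.7%, 44.3 to 71.7, against the 34.2% of all genes), 27 an H3K4me1-marked region, 5 only the latter and 14 neither. Among all 22350 protein-coding genes, 39.4% had an H3K4me1-marked region and 11766 had neither kind. There were 3 or more Runx3-bound regions at 4 of the 46, against the 5.43% above and 8 of the 10 genes described, some of which share regions. By role, Runx3-bound regions were present at 10 of 14 ligands, 7 of 17 receptors and 10 of 15 signalling proteins. The list gave 39 distinct Runx3-bound regions, of which 24 overlapped H3K4me1 (61.5%, against 57.3% of all Runx3-bound regions).

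**Figure D5:**
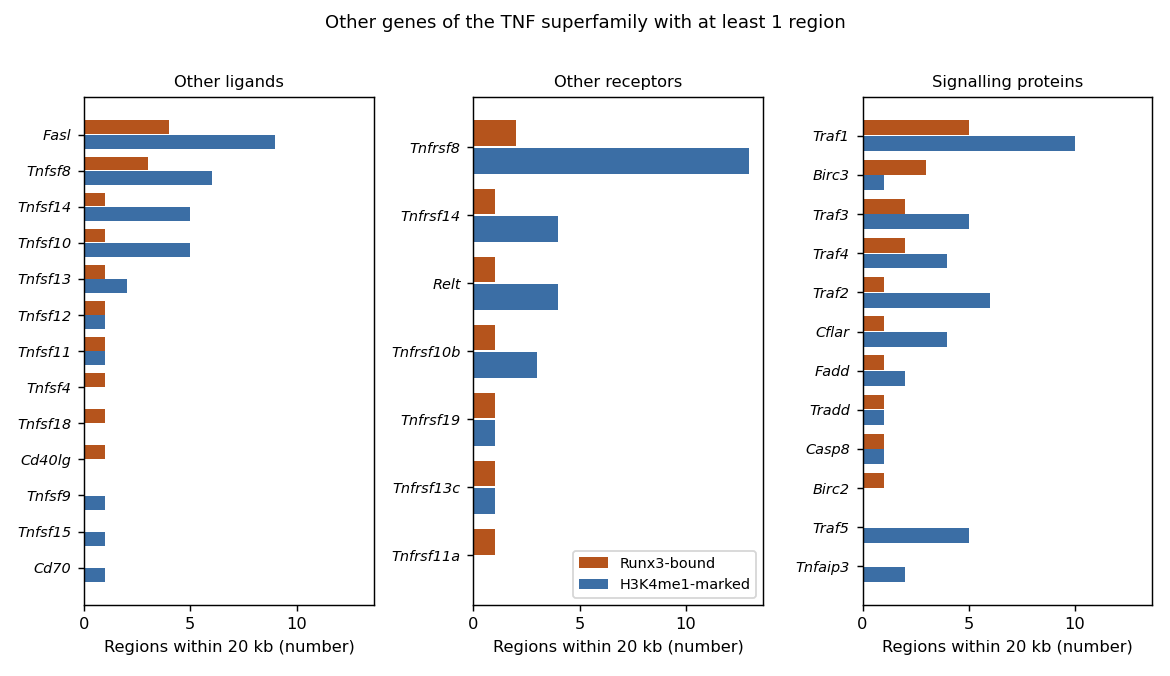
Number of Runx3-bound regions (brown bars) and H3K4me1-marked regions (blue bars) within 20 kb of other ligand, receptor and signalling genes of the TNF superfamily that had at least 1 region of either kind. The longest brown bars are Traf1 with 5 and Fasl with 4, and the 14 genes with neither kind are not drawn.

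Traf1, an adaptor of TNFR2 and 4-1BB that is induced by NF-kB, had 5 Runx3-bound and 10 H3K4me1-marked regions, and 4 of its 5 Runx3-bound regions were marked. Fasl, the ligand of Fas and a killing molecule of cytotoxic T cells, had 4 and 9, all 4 marked, at 21.6 and 9.19 kb downstream and 6.35 and 16.2 kb upstream of the start, with 4, 2, 2 and 8 RUNX motifs. H3K4me1 covered 43.2% of the Traf1 window and 55.5% of the Fasl window. Tnfsf8 (CD30 ligand) had 3 and 6 regions and Birc3, an inhibitor of apoptosis protein, 3 and 1. Tnfrsf8 (CD30), next to Tnfrsf1b, had 2 and 13, and 1 of its 2 Runx3-bound regions was that upstream of Tnfrsf1b counted above. The adaptors Traf3 and Traf4 also had 2 Runx3-bound regions each, with 5 and 4 H3K4me1-marked ones.

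The ligands of the costimulatory receptors had 0 or 1 region of each kind, and over all genes both medians were 0. Of all protein-coding genes, 34.2% had a Runx3-bound and 39.4% an H3K4me1-marked region. Tnfsf9 (4-1BB ligand) and Cd70 each had 0 Runx3-bound and 1 H3K4me1-marked region, and Tnfsf4 (OX40 ligand) and Tnfsf18 (GITR ligand) each had 1 Runx3-bound and 0 H3K4me1-marked regions. Their receptors Tnfrsf9, Cd27, Tnfrsf4 and Tnfrsf18 had 6, 5, 4 and 3 Runx3-bound regions. In the Fas pair the order was the other way, with 4 at the ligand and 2 at the receptor. Ltbr, the receptor of lymphotoxin and a neighbor of Tnfrsf1a, had 0 regions of either kind.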

How the data were processed

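The deposited values were positions in bp of peaks called by the authors, in 2 lists, Runx3 and H3K4me1, without heights, scores or p-values. ELAND was the authors' aligner (mm9, unique alignments only). MACS then gave 1 set of peaks per antibody from the pooled repeats, with NIS as background and the bigger of the compared read sets reduced to match. Joining hides the spread between repeats, and unique alignment leaves repeated sequence uncalled. The labels give 1 H3K4me1 library, the protocol speaks of repeats.

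Windows were gene bodies with 20 kb on each side, and overlap was at least 1 bp. Sequence and genes were NCBIM37 (mm9) and GENCODE vM1. RefSeq promoters are of GRCm38.p6 and were used for their letters only. Adgre1 was not found under that symbol among the marker genes. Genes, lists and regions were chosen with earlier results of these data known, and the sequences at starts and the classes by H3K4me1 number were added after values were seen. All 10 genes were described, and named regions were those at a start, with most RUNX motifs, widest or unmarked, the others being listed for completeness. Of the 46 pathway genes, the 5 ranked first by number of Runx3-bound regions, with ties ordered by H3K4me1 number and then symbol, and the ligands of the receptors were named.

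Overlap, cover and motif functions were tested on simulated data, with 0 differences from direct counting in 1000 trials each. Tools were pandas 2.3.3 and NumPy 2.4.6 under Python 3.11.15, with intervals from SciPy 1.17.1 and plots in matplotlib 3.10.9. Alternatives were other windows, merged regions, other overlap and motif windows and leaving out each locus.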

Additional observations from a re-analysis of the deposited data

How the results depend on the processing

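No paired analysis was possible because the lists were called on joined repeats and hold no value per library, and for the same reason no library could be left out. With gene bodies alone, 13 Runx3-bound and 23 H3K4me1-marked regions were left of 27 and 64, at 6 genes with a Runx3-bound region (background 18.1%). With 5 kb there were 20 and 45 at 8 genes (23.5%), and with 50 kb 32 and 84 at 9 genes (47.9%). Assignment by nearest protein-coding start left 42 H3K4me1-marked regions and merging of regions under 1 kb apart left 34. The share of Runx3-bound regions with H3K4me1 was 63.0% when at least 50% of the region, or its centre, had to be covered, 92.9% for the 14 over 1 kb from any start, and 68.2 to 81.8% when each locus was left out. RUNX motifs were in 66.7% within the central 100 bp (54.3% of all regions). With all 37252 annotated genes as background, 27.3% had a Runx3-bound region. Depth limits how many weak regions are called, and the lists hold none for a single region.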
